A study of Mus musculus with 12 samples.

Results

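The miR-125, miR-99 and miR-100 families were examined in miRNA-Seq libraries of mouse frontal cortex (FCx) and hippocampus (HP). The members are the 5 mature miRNAs that the count tables list as mmu-miR-125a-5p, mmu-miR-125b-5p, mmu-miR-99a, mmu-miR-99b and mmu-miR-100, found by exact name among 469 miRNAs listed in at least 1 library. All 5 had reads in each of the 12 lane tables and passed the filter on low counts, which left 431 miRNAs for testing. The tissue came from adult male C57BL/6J mice aged 8 weeks, without any treatment or genetic change. FCx was cortical tissue from a coronal slice labelled Bregma -1.5 to -3.5, and HP was the entire hippocampus. Negative values usually mean positions behind Bregma, whereas mouse frontal cortex lies in front of it, so which cortical area the FCx values describe is uncertain. Tissue of 3 mice was pooled for each region before total RNA was extracted, and the RNA of each pool was made into 3 libraries that differ in a 6 nt index carried by the 5′ adaptor, which is ligated to the first base of the miRNA, namely index 3, index 7 or index 11. Each library was sequenced in an individual lane and again in a pooled lane, and both counts were summed. The summed totals were 391410 to 1461732 counts in FCx and 3206221 to 4956117 counts in HP. The 3 libraries of a region come from 1 RNA pool, so every p-value here measures the spread between libraries and not the spread between mice.

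miRNAs guide Argonaute proteins to partly complementary sites in mRNAs, mainly through the seed at bases 2 to 8. The miR-125 miRNAs are the mammalian relatives of lin-4, the first miRNA described in worms, and miR-125b is known in brain for roles in neuronal differentiation and at synapses. miR-100 belongs to one of the oldest miRNA families of animals, and the miR-99 and miR-100 miRNAs are known to repress components of the mTOR and insulin-like growth factor signalling pathways. In mammals both families sit with a let-7 miRNA in clusters that are thought to be transcribed together.

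The mature sequences, from RefSeq (GRCm38.p6), are shown to make plain which members can pair with the same sites and how few bases separate them. The seed is in capitals.

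mmu-miR-125a-5p: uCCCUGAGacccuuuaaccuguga
mmu-miR-125b-5p: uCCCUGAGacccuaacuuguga
mmu-miR-99a: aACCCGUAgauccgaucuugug
mmu-miR-100: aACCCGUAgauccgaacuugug
mmu-miR-99b: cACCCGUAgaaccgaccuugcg

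The members thus form a miR-125 pair with the seed CCCUGAG and a miR-99 and miR-100 trio with the seed ACCCGUA. miR-125a-5p and miR-125b-5p share their first 13 bases and differ at 7 of the first 22. miR-99a and miR-100 differ by 1 base, U16A, counted from 1 at the 5′ end with the base of miR-99a first. miR-99b differs from miR-99a at 4 positions, A1C, U11A, U16C and U21C, so that it is the only member of the trio that begins with C. The seed of the pair is also present in miR-351, the only other miRNA of the count tables with either seed.

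All members were placed on NCBIM37, the build used for the deposited alignments, by exact match of the mature sequence, and all lie on the plus strand. miR-99a was found at chr16:77599185-77599206, in an intron of the antisense gene Gm11146. let-7c starts 732 bases downstream of the start of miR-99a, and a copy of miR-125b-5p starts 47339 bases downstream at chr16:77646524-77646545, with no other gene annotated there. miR-100 was found at chr9:41339520-41339541, in an intron of the lincRNA D230004N17Rik, with let-7a 5295 bases downstream. The second copy of miR-125b-5p lies 50503 bases downstream of miR-100 at chr9:41390023-41390044, in introns of D230004N17Rik and 2610203C20Rik. miR-99b was found at chr17:17967158-17967179, let-7e starts 172 bases further on, and miR-125a-5p starts 623 bases further on at chr17:17967781-17967804, in an annotated exon of Ncrna00085. miR-125b-5p is therefore the one member with 2 identical copies, and its count cannot be divided between chromosomes 9 and 16. let-7c and let-7a also match 2 places in the genome each.

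The 5 members together took 2.43% ± 1.36 of all counts in FCx and 2.93% ± 1.60 in HP (SD, n = 3 libraries). The pair took 1.60% ± 1.34 in FCx and 1.48% ± 1.36 in HP, and the trio 0.837% ± 0.910 in FCx and 1.45% ± 1.70 in HP. The SD was close to the mean for both families, and the individual libraries show that this spread followed the index in both regions.

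Levels are given as CPM, the count divided by the library total and multiplied by 1000000. miR-125b-5p was measured in FCx at 27061 with index 3, 3404 with index 7 and 8732 with index 11. In HP it was measured at 26712, 3405 and 6233 with the same indexes. Both index 3 libraries were high, both index 7 libraries were low, and the regions overlapped. The highest library exceeded the lowest 7.95-fold in FCx and 7.84-fold in HP, and within index 3 and index 7 the regions differed by less than 1.5%.

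miR-125a-5p, the other miRNA of the pair, stood at 3991, 2108 and 2615 CPM in FCx with indexes 3, 7 and 11, and at 3774, 2510 and 1753 CPM in HP. It was again highest with index 3 in both regions, but the range over the indexes was only 1.89-fold in FCx and 2.15-fold in HP. HP was above FCx with index 7 and below it with indexes 3 and 11.

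miR-99a stood at 2067, 2697 and 17696 CPM in FCx with indexes 3, 7 and 11. In HP it stood at 3368, 4684 and 32655 CPM. Both index 11 libraries were far above the others, by 8.56-fold over the lowest in FCx and 9.70-fold in HP. The regions overlapped as groups, yet within each index miR-99a had a higher expression level in HP, by 1.63-fold with index 3, 1.74-fold with index 7 and 1.85-fold with index 11.

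miR-100, which differs from miR-99a at position 16, was much less abundant, at 253, 80.7 and 656 CPM in FCx and 260, 136 and 804 CPM in HP. The lowest value rests on 118 counts, with a 95% Wilson interval of 67.4 to 96.7 CPM. Index 11 gave the highest value in both regions as for miR-99a, but the lowest came from index 7 and not from index 3. HP exceeded FCx by 1.03-fold with index 3, 1.68-fold with index 7 and 1.23-fold with index 11.

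miR-99b stood at 634, 511 and 523 CPM in FCx and 313, 594 and 691 CPM in HP. It varied least over the indexes in FCx (1.24-fold), and in HP its index 3 library was 2.21-fold below its index 11 library. HP was below FCx with index 3, at 0.494 of the FCx level, and above it with index 7 (1.16-fold) and index 11 (1.32-fold).

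**Figure D1:**
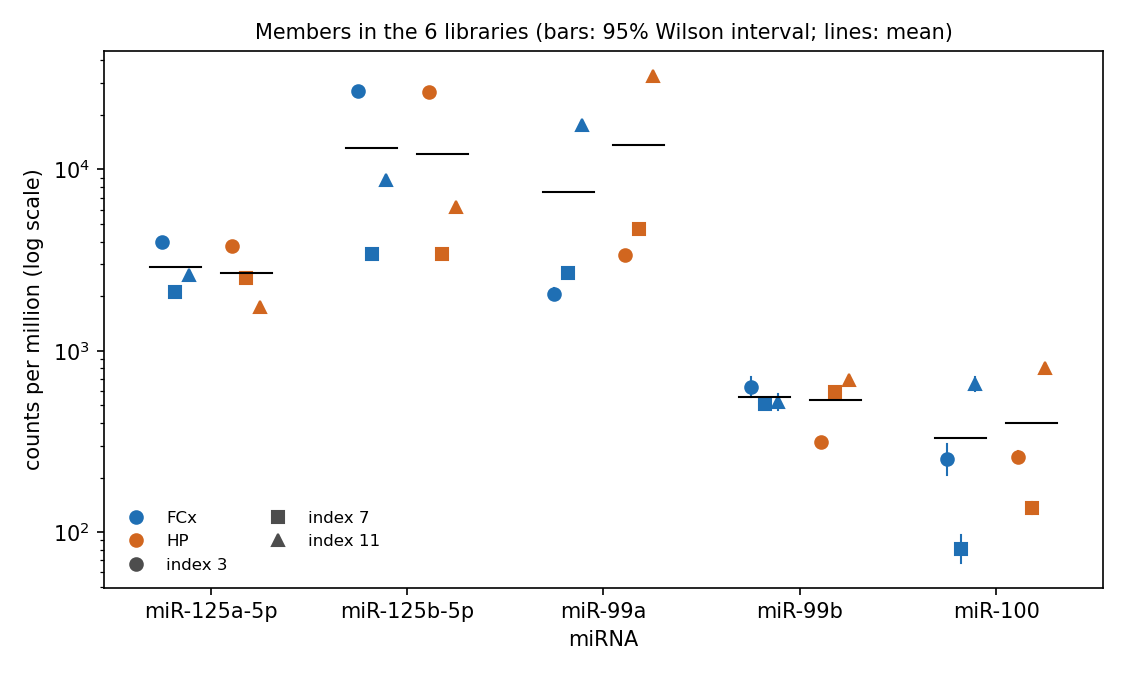
CPM (log axis) of the 5 members in the 3 FCx libraries (blue) and the 3 HP libraries (orange), with the index as marker shape, 95% Wilson intervals as vertical bars where they exceed the marker, and the mean of 3 libraries as a black line. miR-125b-5p was highest with index 3 in both regions (27061 and 26712 CPM), miR-99a and miR-100 with index 11.

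Because of these ranges the order of the members was not the same in all libraries. miR-125b-5p ranked 10th among all miRNAs in FCx and 9th in HP with index 3, but 22nd and 23rd with index 7. miR-99a ranked 37th and 27th with index 3, but 9th and 8th with index 11. miR-125b-5p was the most abundant member in both index 3 libraries and in FCx with index 7, and miR-99a was the most abundant in the other 3 libraries. miR-100 ranked between 51st and 137th in FCx.

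The difference between FCx and HP was tested over all 431 miRNAs with edgeR's quasi-likelihood test on the 6 libraries without an index term, since the study treated the indexes as technical replicates. None of the 5 members was called, against 0.464% of all miRNAs tested (2 miRNAs), and none had an unadjusted p below the threshold either. The log2 fold changes of FCx over HP were -1.45 (SE 1.17) for miR-99a, -0.90 (SE 1.02) for miR-100, -0.50 (SE 0.87) for miR-125b-5p, -0.42 (SE 0.71) for miR-99b and -0.32 (SE 0.63) for miR-125a-5p, each with an adjusted p of 0.992. TMM scaling placed the median of all 431 miRNAs at -0.37, relative to which miR-99a lay 1.08 below, miR-100 lay 0.53 below and the other 3 members lay between 0.13 below and 0.05 above. With library totals as scale the median was 0.03, miR-99a was at -0.86 and miR-100 at -0.28, and the other 3 members changed sign to 0.06 to 0.12. DESeq2's Wald test called none of 4 members (adjusted p = 0.998) and gave no adjusted p for miR-99a.

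Each index occurs once in each region, and libraries with the same index deviated together, so the comparison was also made with the index as a replicate block. 2 of the 5 members were then called, both higher in HP, where 17.9% of all miRNAs were called, 12.8% were called higher in HP and 5.1% higher in FCx. miR-99a had a log2 fold change of -1.22 (SE 0.31, adjusted p = 0.0017 by edgeR) and was higher in HP in 3 of 3 indexes. It also passed in the blocked test with library totals (-0.80, adjusted p = 0.0035), which called 4.64% of all miRNAs higher in HP, and in the blocked DESeq2 test (-0.94, adjusted p = 0.0017), which called 3.25% higher in HP. Without index 3 it was at -1.08 (SE 0.54, adjusted p = 0.258 by edgeR) and without index 11 at -0.74 (SE 0.36, adjusted p = 0.210 by edgeR), with 2 libraries per region left, and the call was lost. miR-100 had a log2 fold change of -0.78 (SE 0.29, adjusted p = 0.037 by edgeR) and was higher in HP in 3 of 3 indexes, but did not pass with library totals (-0.36, adjusted p = 0.616) or in DESeq2 (adjusted p = 0.169). Its call was also lost without index 3 (-0.76, adjusted p = 0.330 by edgeR), without index 7 (-0.58, adjusted p = 0.182) and without index 11 (-0.39, adjusted p = 0.614).

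miR-125a-5p, miR-125b-5p and miR-99b did not pass the blocked edgeR test either, with log2 fold changes of -0.28 (SE 0.29), -0.25 (SE 0.31) and -0.29 (SE 0.29) and adjusted p-values of 0.596, 0.691 and 0.595. Relative to the median of all miRNAs in that fit, which was -0.38, these 3 members lay 0.10 to 0.13 above it, miR-99a lay 0.83 below and miR-100 0.40 below. Of all miRNAs tested, 18.6% had a higher CPM in HP with all 3 indexes and 9.05% had regions that did not overlap. miR-99a and miR-100 belong to the former, miR-100 by only 1.03-fold with index 3, and none of the 5 members to the latter. In bulk tissue, fewer cells of a type and less of the miRNA per cell cannot be told apart.

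**Figure D2:**
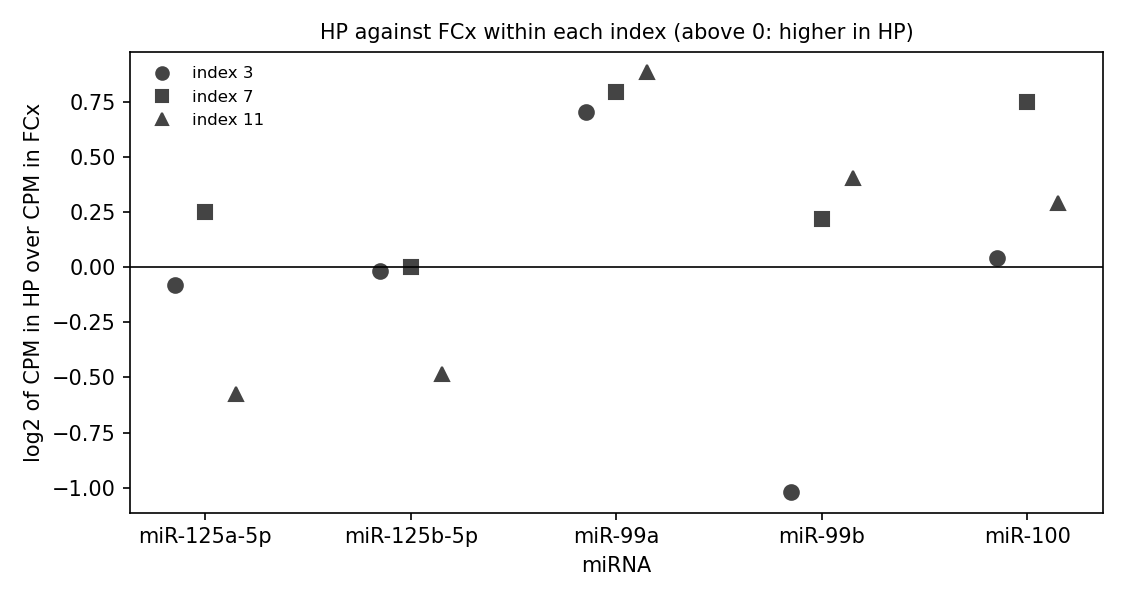
The log2 ratio of CPM in HP over CPM in FCx within each index (vertical axis) for the 5 members, with 1 marker per index and a line at 0 where both regions are equal. The 3 markers of miR-99a lie close together above 0 (1.63-fold to 1.85-fold). Those of miR-100 spread more widely, with index 3 barely above 0 (1.03-fold), and the other members lie on both sides.

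Of the marker lists, only those for olfactory and other epithelium and for brain and neuron had sums that did not overlap between the regions. The summed level of 8 miRNAs of olfactory and other epithelium was 1478 to 5702 CPM in FCx and 24.7 to 134 CPM in HP, where miR-96 had no read. The 3 brain and neuron miRNAs summed to 241123 to 271724 CPM in FCx and 103071 to 167715 CPM in HP, and 5 miRNAs of the choroid plexus to 50.6 to 94.5 CPM in FCx and 92.5 to 273 CPM in HP, 2 ranges that overlapped slightly. All members of the lists for oligodendrocytes, blood, endothelium, liver and muscle had reads in both regions, and their sums overlapped between the regions. The myeloid miRNA miR-223 was at 1.37 to 2.55 CPM in FCx and 0 to 3.23 CPM in HP. Their part in the levels of miR-99a and miR-100 was not tested.

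The 2 runs of a library give the spread that arises after library preparation. The CPM of a member in the pooled lane over that in the individual lane had a median of 1.07 over 30 pairs, and 17 of the 30 lay within 1.2-fold. The HP library with index 3 stood apart, with ratios of 2.46 for miR-99b, 1.71 for miR-99a, 1.49 for miR-125a-5p, 1.39 for miR-100 and 1.31 for miR-125b-5p. For miR-99a, HP exceeded FCx with index 3 by 1.27-fold in the individual lanes and by 2.32-fold in the pooled lanes. With index 7 these values were 1.67-fold and 1.84-fold, and with index 11 they were 1.88-fold and 1.75-fold. miR-99a was thus higher in HP with each index in both runs, but the 2 runs sequenced the same libraries and are not separate replicates. The miR-99b value of HP with index 3 was 204 CPM in the individual lane and 503 CPM in the pooled lane, and in both it was below FCx of the same index and run (0.349 and 0.672 of it).

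**Figure D3:**
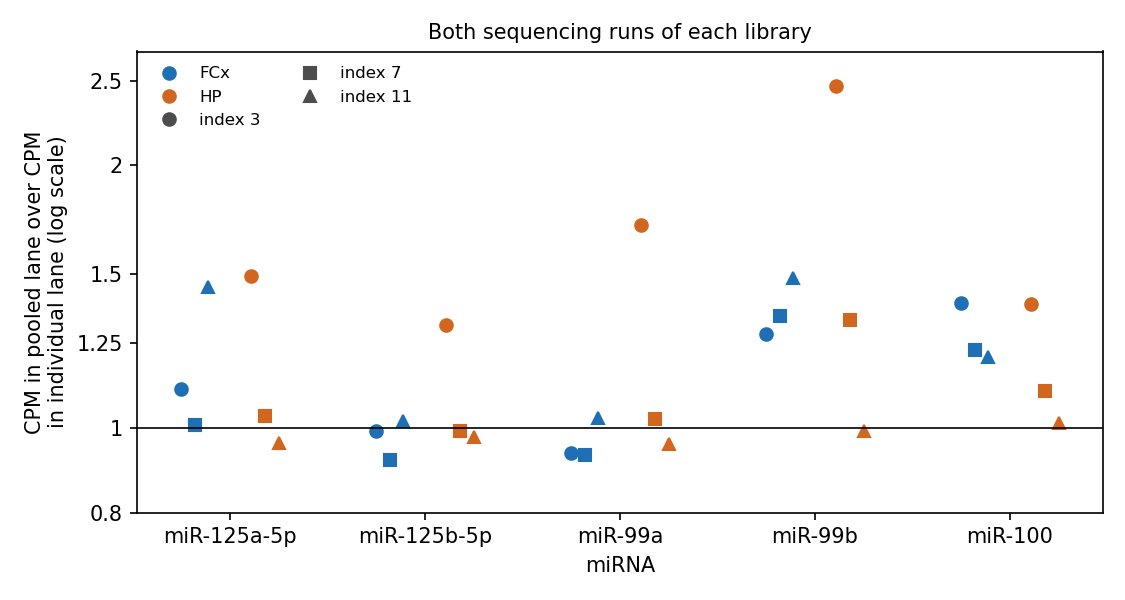
CPM in the pooled lane divided by CPM in the individual lane of the same library (log axis) for the 5 members, with FCx in blue, HP in orange and the index as marker shape. The HP library with index 3 gave the highest ratio for 4 of the 5 members, up to 2.46 for miR-99b.

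The effect of the index was tested with the region in the model, by edgeR's quasi-likelihood test of both index coefficients. 4 of the 5 members were called, against 61.3% of all miRNAs tested. The adjusted p was 7.09e-22 for miR-99a, 6.59e-16 for miR-100, 6.17e-10 for miR-125b-5p and 0.0388 for miR-99b, and miR-125a-5p did not pass (adjusted p = 0.540). The calls of miR-99b and miR-125a-5p changed places with library totals as scale (adjusted p = 0.668 and 0.0196), and that of miR-99a was lost without index 11 (adjusted p = 0.160). The call of miR-99b was also lost with pooled lanes only (adjusted p = 0.417) and without index 3, 7 or 11 (adjusted p = 0.554, 0.0506 and 0.255).

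Of the 128 miRNAs whose mean reached 100 CPM in each region, 75.0% had the same highest index in FCx and HP and 40.6% had a range of at least 4-fold in both regions. Of the 5 members, 4 had the same highest index in both regions, the exception being miR-99b, and 3 had a range of at least 4-fold in both, namely miR-125b-5p, miR-99a and miR-100. The median range in that group was 3.83-fold in FCx and 3.72-fold in HP. miR-125a-5p and miR-99b, the members from chromosome 17, lay below that median in both regions.

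A ratio of 2 counts from the same library needs no scaling between libraries. The ratio of miR-125b-5p to miR-99a was 13.1, 1.26 and 0.493 in the FCx libraries, against 7.93, 0.727 and 0.191 in HP with indexes 3, 7 and 11. It spanned 26.5-fold in FCx and 41.6-fold in HP, so that with index 3 miR-125b-5p was the more abundant and with index 11 miR-99a was. It was lower in HP within each index.

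The ratio of miR-99a to miR-100, 2 miRNAs that differ by the single substitution U16A, was 8.17, 33.4 and 27.0 in the FCx libraries, against 12.9, 34.5 and 40.6 in HP. It was higher in HP within each index, by 1.58-fold, 1.03-fold and 1.51-fold. The ratio of miR-125a-5p to miR-125b-5p was 0.147, 0.619 and 0.299 in the FCx libraries, against 0.141, 0.737 and 0.281 in HP. The members of the pair therefore kept nearly the same proportion in both regions when the index was the same, while the proportion changed several-fold with the index.

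For the 2 members of the chromosome 17 cluster, the ratio of miR-125a-5p to miR-99b was 6.30, 4.13 and 5.003 in the FCx libraries, against 12.1, 4.22 and 2.54 in HP. The ratio of miR-99b to miR-99a was 0.307, 0.189 and 0.0295 in the FCx libraries, against 0.0929, 0.127 and 0.0212 in HP, lower in HP within each index.

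Over the 13 ratios examined, none differed between the regions in the exact two-sided permutation test of 3 against 3 libraries (lowest p = 0.5, adjusted p = 1.0), which cannot give a p under 0.1. The range over the indexes exceeded the difference between the region means for 13 of 13 ratios, although differences within single indexes can cancel in those means. For miR-125a-5p/miR-99b the log2 differences of FCx minus HP were -0.94 with index 3 and 0.98 with index 11, above its FCx range over the indexes of 0.61. Within the indexes, 1 ratio was higher in HP with all 3 indexes and 6 were lower with all 3. Each of those 7 has miR-99a or miR-100 as a term, but so do most of the 13 ratios. miR-99b/miR-100 and let-7a/miR-100 also hold miR-100 and changed direction between indexes. Several of the ratios reuse the same counts and are not independent. An exact sign-flip test over 3 indexes cannot give a p under 0.25.

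**Figure D4:**
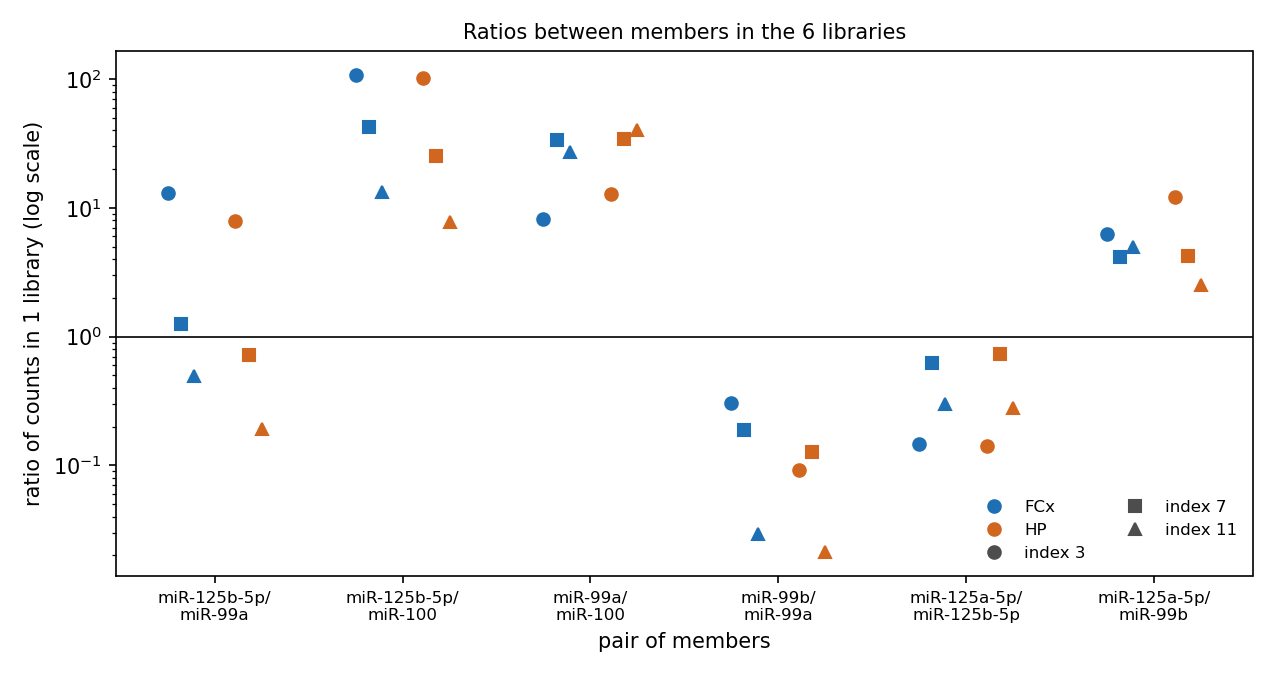
Ratios of the counts of 2 members within a library (log axis, line at 1) for 6 pairs, with FCx in blue, HP in orange and the index as marker shape. The ratio of miR-125b-5p to miR-99a falls from 13.1 with index 3 to 0.493 with index 11 in FCx and from 7.93 to 0.191 in HP. Markers of the same index lie near each other for miR-125a-5p/miR-125b-5p. They lie apart for miR-125a-5p/miR-99b, with 6.30 in FCx against 12.1 in HP with index 3.

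Of the let-7 partners of the clusters, let-7c and let-7a were more abundant than every member in each library. let-7e was below miR-99a with index 11, at 15773 against 17696 CPM in FCx and 15498 against 32655 CPM in HP. let-7c took 21.1% ± 3.17 of the counts in FCx and 27.4% ± 0.923 in HP (SD, n = 3), let-7a 7.46% ± 1.00 and 8.88% ± 1.86, and let-7e 2.86% ± 1.12 and 3.12% ± 1.36. Their range over the indexes was 1.32-fold and 1.07-fold for let-7c, 1.30-fold and 1.54-fold for let-7a, and 2.28-fold and 2.57-fold for let-7e. let-7c and let-7a were higher in HP within each index, but neither passed the blocked edgeR test (adjusted p = 0.101 and 0.183), nor did let-7e (adjusted p = 0.293).

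let-7c exceeded miR-99a 90.9-fold, 91.6-fold and 11.2-fold in FCx and 80.6-fold, 60.8-fold and 8.18-fold in HP with indexes 3, 7 and 11. let-7e exceeded miR-99b 53.8-fold, 70.4-fold and 30.2-fold in FCx and 127-fold, 64.1-fold and 22.4-fold in HP. The counts of neighbours in a cluster thus did not keep a fixed proportion between libraries of the same RNA pool. The let-7c count covers both of its places in the genome and not only the neighbour of miR-99a. miR-351, which shares the seed of the miR-125 pair, was rare, at 79.2, 12.998 and 35.3 CPM in FCx and 46.2, 13.3 and 12.3 CPM in HP.

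The miRNAs whose log2 CPM over the 6 libraries was most like that of a member are given by Pearson's r, as a description over 123 non-member miRNAs whose mean reached 100 CPM in each region. The 6 libraries come from 2 RNA pools and 3 indexes, so that r mostly compares the pattern over the indexes. For miR-125b-5p they were miR-23a (r = 0.992), miR-23b (0.992) and miR-30c (0.9885), for miR-99a they were miR-101a (0.9775), miR-93 (0.960) and miR-218 (0.948), and for miR-100 they were miR-22 (0.987), miR-496 (0.982) and miR-143 (0.968). miR-125a-5p was closest to miR-29c (0.948), miR-300 (0.941) and miR-409-5p (0.930). miR-99b had no close match, with 0.569 for miR-29a, 0.558 for miR-323-3p and 0.470 for miR-93. Among the members themselves, r was 0.8355 for the miR-125 pair and 0.819 for miR-99a and miR-100. Between members of the same cluster, r was -0.487 for miR-125a-5p and miR-99b on chromosome 17. It was -0.274 for miR-125b-5p and miR-99a and 0.312 for miR-125b-5p and miR-100, where miR-125b-5p counts both of its copies.

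The opposite arms can tell apart the 2 genes of miR-125b, since the mature 5p sequence is identical and the 3p sequences differ. The sequences of both 3p arms, from RefSeq with bases 2 to 8 in capitals, are shown for this reason.

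miR-125b-1-3p (chromosome 9): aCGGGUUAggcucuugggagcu
miR-125b-2-3p (chromosome 16): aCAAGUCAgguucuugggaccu

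In the genome alignments, the 3p arm on chromosome 16 had 37, 169 and 15 reads in FCx and 361, 1087 and 61 reads in HP with indexes 3, 7 and 11. The arm on chromosome 9 had 8, 116 and 13 reads in FCx and 26, 159 and 35 reads in HP. The count tables list 2 opposite arms with nearly the same numbers, miR-125b* with 42, 189 and 15 counts in FCx and 410, 1202 and 64 in HP, and miR-125b-3p with 8, 117 and 13 counts in FCx and 24, 152 and 32 in HP. Reads of the 5p arm, which match both places equally, were placed on chromosome 9 in 49.3% to 51.5% of cases and so carry no such information.

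miR-125b* made up 84.0%, 61.8% and 53.6% of the 2 opposite arms in FCx with indexes 3, 7 and 11, with exact 95% intervals of 70.9% to 92.8%, 56.1% to 67.2% and 33.9% to 72.5%. In HP it made up 94.5%, 88.8% and 66.7%, with intervals of 91.9% to 96.4%, 87.0% to 90.4% and 56.3% to 76.0%. These intervals cover counting error only, as the reads carry no molecular identifiers. The ratio of miR-125b* to miR-125b-3p was higher in HP within each index, by 3.25-fold, 4.90-fold and 1.73-fold. The exact two-sided permutation test over 3 against 3 libraries did not separate the regions (p = 0.2). This ratio was chosen after the values had been seen.

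Of the single arms, miR-125b-3p was higher in FCx within each index, by 2.73-fold, 2.61-fold and 2.52-fold. Without a block it was not called, with a log2 fold change of 1.27 (SE 1.03, adjusted p = 0.992 by edgeR) and adjusted p-values of 0.998 in DESeq2 and 0.466 and 0.699 in the tests on lane tables. It passed the blocked edgeR test (log2 fold change 1.11, SE 0.36, adjusted p = 0.0149), as 1 of 4 arms tested, where 17.9% of all miRNAs were called and 5.1% were called higher in FCx. In blocked fits it also passed with library totals and in DESeq2 (adjusted p = 0.0025 and 0.0367). These fits called 56 and 41 of 431 miRNAs in either direction. Without index 7 it was at 0.97 (SE 0.47, adjusted p = 0.285 by edgeR). It had only 8 counts in FCx with index 3, so the filter of at least 10 counts in every library removed it. miR-125b* did not pass the blocked edgeR test (-0.69, SE 0.30, adjusted p = 0.0927). Nor did miR-99b*, the opposite arm of miR-99b (-0.71, SE 0.38, adjusted p = 0.199), or miR-125a-3p (0.68, SE 0.44, adjusted p = 0.337). miR-125b-5p itself did not pass the blocked test either, with a log2 fold change of -0.25 (SE 0.31).

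The reads at the hairpins of the members were examined in the genome alignments, where the longest read had 23 nt in every library. Between 97.1% and 99.6% of the reads of a 5p arm began at its annotated first base. Among miR-99a reads, 11.1% in FCx and 9.00% in HP were 23 nt long with index 7, against 0.217% and 0.0953% with index 11 and 1.84% and 2.56% with index 3. Reads of miR-99a that began 1 base upstream made up 2.46% and 1.97% with index 3 and 0.279% to 0.400% with the other indexes. The shape of the miR-99a reads was thus alike in FCx and HP with the same index and differed between indexes.

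The opposite arm made up 5.89% of the reads at the miR-125b hairpins in FCx and 7.44% in HP with index 7, and 0.437% to 0.561% with the other indexes. For miR-99b it made up 6.99% and 8.53% with index 7 and 0.402% to 2.20% with the others. The opposite arm of miR-99a made up at most 2.11%. miR-100 had on average a lower share of reads of 22 nt than the other members, 90.5% ± 2.60 in FCx and 87.0% ± 4.16 in HP (SD, n = 3). In FCx with index 7, however, miR-99a was below miR-100 (87.2% against 89.2%). Reads under 18 nt count in these shares. With reads of at least 18 nt only, miR-100 differed by 1.18 percentage points (FCx minus HP), against 3.51 with all reads. In the exact two-sided permutation test on 15 shares (start, length and arm of each member), none differed between the regions (lowest p = 0.2, adjusted p = 0.857).

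**Figure D5:**
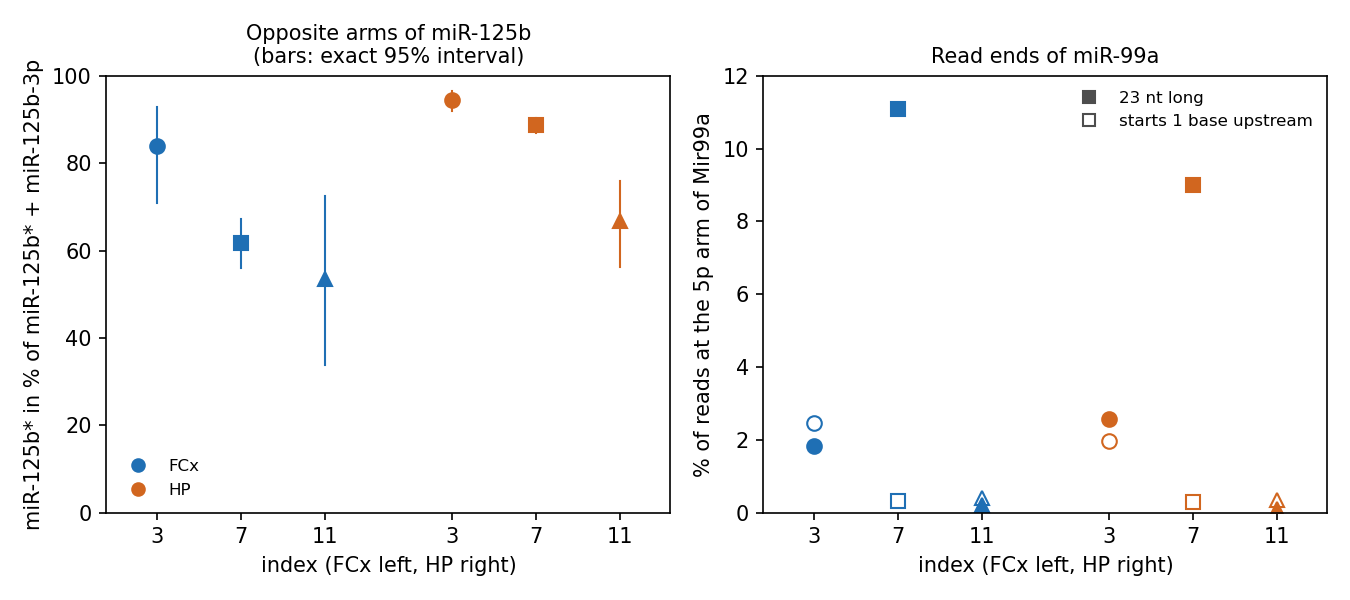
Left, miR-125b* in percent of miR-125b* and miR-125b-3p together by index, with FCx in blue, HP in orange and exact 95% intervals as bars. Right, the percentage of reads at the 5p arm of miR-99a that were 23 nt long (filled) or began 1 base upstream (open). HP lies above FCx with each index on the left, and on the right both index 7 libraries stand out with 11.1% and 9.00%.

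The alignments at miR-99a, miR-99b and miR-100 numbered 98.8% to 108% of the table counts, those at both copies of miR-125b-5p 84.2% to 91.8%, and those at miR-125a-5p 69.1% to 86.4%. miR-125a-5p is annotated with 24 nt, above the longest read in the alignments. The count tables were made with up to 2 mismatches, so reads of miR-99a and miR-100, which differ at 1 base, could be exchanged between both names. let-7a, let-7c and let-7e also differ from each other by few bases, so the same holds for them. How many reads were exchanged was not tested.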

How the data were processed

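Small RNA of FCx and HP was sequenced on an Illumina Genome Analyzer II. The authors kept reads with an index, trimmed the index and the 3′ adaptor, removed adaptor dimers, mitochondrial and ribosomal sequence, homopolymers and reads under 14 nt, and aligned with Bowtie with up to 2 mismatches to NCBIM37 and to miRBase 11. As deposited, the count tables hold whole reads per mature miRNA and lane without normalization, and the alignment files the position of 1 alignment per read. They also hold reads under 14 nt, the shortest of 4 nt.

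Counts of both lanes of a library were summed, giving 3 libraries per region. miRNAs with at least 2 counts in FCx or in HP were tested with edgeR 4.0.16 in R 4.3.3 (quasi-likelihood, TMM, Benjamini-Hochberg, threshold 0.05). DESeq2 1.42.0 served as an alternative. The index was tested with the region in the model and also fitted as a replicate block: same-index libraries of FCx and HP correlated with r of 0.796, 0.846 and 0.854 over miRNAs after centring within each region, different indexes with -0.618 to -0.226. Centring makes the deviations within a region sum to 0. Positive values for the same index thus force negative ones among different indexes, whose sign adds no evidence. The scripts were tested on simulated data. Ratios and read shares were compared with exact permutation tests in Python 3.11.15 with scipy 1.17.1, and plots were drawn with matplotlib 3.10.9. Intervals are Wilson or exact binomial intervals at 95% and cover counting error only.

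Named miRNAs are the members, the other miRNAs and arms of their clusters, miRNAs with the same seed, the 3 non-member miRNAs most like each member, and tissue markers. Members, lists and tests were chosen with earlier results of these data known. Alternatives covered scaling, filter, lanes, test, block and left-out libraries. Sequences were matched from RefSeq, annotation from GENCODE vM1. Array data were not analysed here.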

Additional observations from a re-analysis of the deposited data

Results flagged for a closer look

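Some members changed between indexes in opposite directions in FCx and HP, each time with 1 library per index and region, and these differences between the regions were not tested. For miR-99b, the log2 ratio of index 11 over index 3 was -0.28 in FCx and 1.14 in HP, and that of index 3 over index 7 was 0.31 in FCx and -0.93 in HP. Both contrasts involve the HP library with index 3, in which miR-99b was at 204 CPM in the individual lane and 503 CPM in the pooled lane. For miR-125a-5p, the log2 ratio of index 11 over index 7 was 0.31 in FCx and -0.52 in HP. Its values in FCx with index 11 were 2361 CPM in the individual lane and 3426 CPM in the pooled lane.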

How the results depend on the processing

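Without the block 2 miRNAs were called between the regions by edgeR. The count was 8 with no filter, 0 with at least 10 counts in every library, 0 with pooled lanes only, 15 with each lane file as a sample, 14 in edgeR's exact test on lane files with library totals and 12 in DESeq2's Wald test. With the replicate block it was 77, with library totals 56 and with DESeq2 41, and leaving out libraries gave 0 to 7 without and 30 to 51 with the block. The cause was not tested. The index called 264 miRNAs, 139 of 173 with at least 10 counts in every library, where fewer miRNAs were tested, and 160 to 211 without 1 index.

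The log2 fold change of miR-125a-5p (FCx over HP) became 0.12 with library totals, 0.13 with these and the replicate block and 0.14 in edgeR's exact test on lane files, which also used library totals, and ran from -0.26 to 0.077 when libraries were left out. miR-125b-5p became 0.11, 0.17 and 0.070 under the same settings and 0.023 in the blocked DESeq2 test, ran from -1.07 to 0.83 and, in the block without an index, from -0.14 to 0.014 (0.0071 without index 3). miR-99b became 0.061, 0.12 and 0.088 and ran from -0.54 to 0.42, in the block without an index from -0.54 to 0.40. miR-99a ran from -3.15 to 1.18 and miR-100 from -1.98 to 0.91, both turning positive without the HP library with index 11. These single libraries leave the indexes unbalanced.

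The replicate block leaves the mean difference of a ratio as it is, for example -0.43 for miR-99a/miR-100 and 0.96 for miR-125b-5p/miR-99a (log2, FCx minus HP). Leaving out single libraries moved it from -0.60 to 0.60 for miR-125a-5p/miR-125b-5p, -0.94 to 0.19 for miR-99a/miR-100, -0.23 to 1.27 for miR-99b/miR-100, -0.49 to 0.63 for miR-125a-5p/miR-99b, -0.39 to 2.43 for miR-125b-5p/miR-99a, -0.37 to 1.49 for miR-125b-5p/miR-100, -0.37 to 2.38 for miR-125b-5p over miR-99a and miR-100, -0.40 to 2.12 for the pair over the trio, -0.90 to 0.36 for let-7e/miR-99b, -0.65 to 0.10 for let-7e/miR-125a-5p, -0.63 to 1.42 for let-7c/miR-99a and -0.54 to 0.78 for let-7a/miR-100. Other reversals were miR-125a-5p/miR-125b-5p at 0.11 with pooled lanes and 0.27 with summed counts, miR-125a-5p/miR-99b at -0.083 with individual lanes, let-7a/miR-100 at -0.012 with pooled lanes, and let-7e over miR-99b and over miR-125a-5p at 0.021 and 0.0012 with summed counts. miR-99b/miR-99a and miR-125b*/miR-125b-3p kept their direction in the settings run, at 0.14 to 1.94 and -2.44 to -0.89 when libraries were left out, and the latter at -2.37 to -1.41 otherwise.

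For the read shares (FCx minus HP, percentage points), leaving out libraries gave -0.840 to 0.322 for the start of miR-125a-5p, -0.978 to 0.0521 for its length, -0.271 to 0.870 for its arm, -1.29 to 1.86 and -2.28 to 1.83 for length and arm of miR-125b-5p, -0.888 to 0.685, -3.55 to 2.80 and -0.327 to 0.699 for start, length and arm of miR-99a, and -0.305 to 0.209 and -3.13 to 1.01 for start and arm of miR-99b. The length of miR-125a-5p became 0.0483 with reads of at least 18 nt, the start of miR-99a 0.0998 with individual lanes and that of miR-99b 0.0146 with pooled lanes. Depth limits the precision most for miR-100, with down to 99 counts in a library, and for the opposite arms, with down to 8 counts for miR-125b-3p, 15 for miR-125b*, 2 for miR-99b* and 1 for miR-125a-3p. Its part in the other results was not tested.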
